A study of Mus musculus with 2 samples.

Results

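The genes described here encode factors that place heterochromatin on the genome and silence proviruses in mouse embryonic stem cells. They were chosen by name, with earlier results of these data known. They were Trim28, Setdb1, Ehmt1, Ehmt2, Cbx5, Cbx1, Cbx3, Daxx and Chaf1a, or 9 of the 10912 genes with a listed m6A position. A position belonged to a gene when it lay in an annotated exon on the gene's strand, each genome position and strand being counted once, and the 9 genes held 265 of the 160430 positions in the deposited lists. All 9 had some, from 17 in Cbx1 to 45 in Setdb1.

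Poly(A) RNA of mouse 129 embryonic stem cells was read as native RNA on nanopores, and 10 tools called m6A from the signal or from basecalling errors. The 2 groups were wild-type (WT) cells and Mettl3 knockout (KO) cells, which lack exons 5 to 7 of both alleles of Mettl3, the gene of the catalytic subunit of the main m6A methyltransferase. Drug resistance markers (puromycin and hygromycin) stand there instead, placed by CRISPR–Cas9. The KO cells came from selected colonies, and the labels do not say how many colonies the RNA came from. Each condition had 1 library and no replicates, so no test across libraries was possible and all intervals are Wilson 95% intervals that cover counting error only.

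The authors deposited 17 lists. Tombo, MINES, Nanom6A, m6Anet, ELIGOS and Epinano read 1 library at a time (single-mode) and have 1 list per condition. xPore models both libraries together and also has 1 list per condition, without a statement of what each holds. Nanocompore, DiffErr and DRUMMER have 1 list each, made by setting WT against KO and called comparison lists here. The 3 comparison lists use the same reads and are not independent of each other, and MINES takes its input from Tombo. By the methods of the study, Nanom6A too starts from signals that Tombo assigned to bases. A list holds positions with no read number, score or methylation rate. The methods of the study describe a minimum read number and a cut-off per tool, set by agreement with antibody-based maps of m6A. By their sizes several deposited lists, those of Tombo and Epinano among them, are not the sets made at those cut-offs, and the files do not say which cut-offs or read minimums they carry. The shares below hold for the lists as deposited. The depth behind each position is therefore unknown, and a position absent from a list may have had too few reads or a signal below the cut-off, which cannot be told apart. By mass spectrometry the study found almost no m6A in the KO mRNA, and it proposes that many calls in KO are false positives. A position listed in KO is thus not taken here as methylated without Mettl3.

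In embryonic stem cells, Trim28 (KAP1) is brought to retroviral sequences by KRAB zinc finger proteins and recruits Setdb1, which methylates lysine 9 of histone H3. Ehmt2 (G9a) and Ehmt1 (GLP) form a heterodimer that methylates the same residue, and the HP1 proteins encoded by Cbx5 (alpha), Cbx1 (beta) and Cbx3 (gamma) bind the methylated lysine. Daxx works with Atrx to deposit a replacement form of histone H3 in heterochromatin, and Chaf1a is the large subunit of CAF-1, which assembles nucleosomes behind the replication fork and is needed for provirus silencing.

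The labels were checked at Mettl3 first. At least 1 tool listed 13 positions of Mettl3 in WT and 5 in KO. In the replaced exons 5 to 7 the counts were 2 in WT and 0 in KO, in exons 1 to 7 together 9 and 0, and in exons 8 to 11, which lie after the replaced exons, they were 4 and 5. Of 10 embryonic stem cell markers, among them Pou5f1, Sox2, Nanog and Esrrb, all 10 had listed positions in both conditions. Of 10 markers of differentiated or feeder cells, 3 had any: Sox17 with 12 in WT and 0 in KO, Nes with 3 in WT and 0 in KO, and Col1a1 with 0 in WT and 3 in KO. The lists hold no transcript level, so the part of such cells in the results was not tested.

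Of the 265 positions in the silencing genes, 231 were in a WT or comparison list and 174 were listed in KO. Both held 140 of them, 91 were in WT only and 34 in KO only. The 3 in a comparison list were in WT lists too, so all 231 are called WT positions below. The 34 made up 12.8% of the 265 (9.33% to 17.4%), against 19.6% of positions found in KO only over the whole series. Of the 231 WT positions, 60.6% (54.2% to 66.7%) were listed by at least 1 tool in KO, beside 59.0% over the series. As a group the silencing genes were thus near the series in how many WT positions returned in KO, while by gene the share returning ran from 11 of 38 positions in Ehmt1 to 34 of 34 in Trim28.

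Listed positions were counted against the RRACH 5-mers (R is A or G, H is A, C or T) of 1 main coding transcript per gene, since 99.6% of all listed positions lie in that motif. The 9 main transcripts hold 517 RRACH positions, of which 42.2 per 100 were listed in WT and 32.1 per 100 in KO. Over 10061 genes the medians of the values by gene were 30.3 and 23.1. The like values of the 9 genes, not pooled, were 47.7 in WT (Daxx) and 29.9 in KO (Setdb1). Within the group the WT density ran from 11.7 per 100 in Cbx5 to 97.1 per 100 in Trim28. The lists hold no read depth, and its part in these densities was not tested. The density was lower in KO than in WT in 6 of the 9 genes, the same in Trim28 and Cbx1, and higher in KO in Cbx5. For Cbx1 this leaves out the 13 of its 17 positions that are off the main transcript, and over the whole gene it had 16 in WT and 11 in KO. Genes were not counted by direction over the series, where the median was also lower in KO, so the 6 are not read as a trait of the group.

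**Figure D1:**
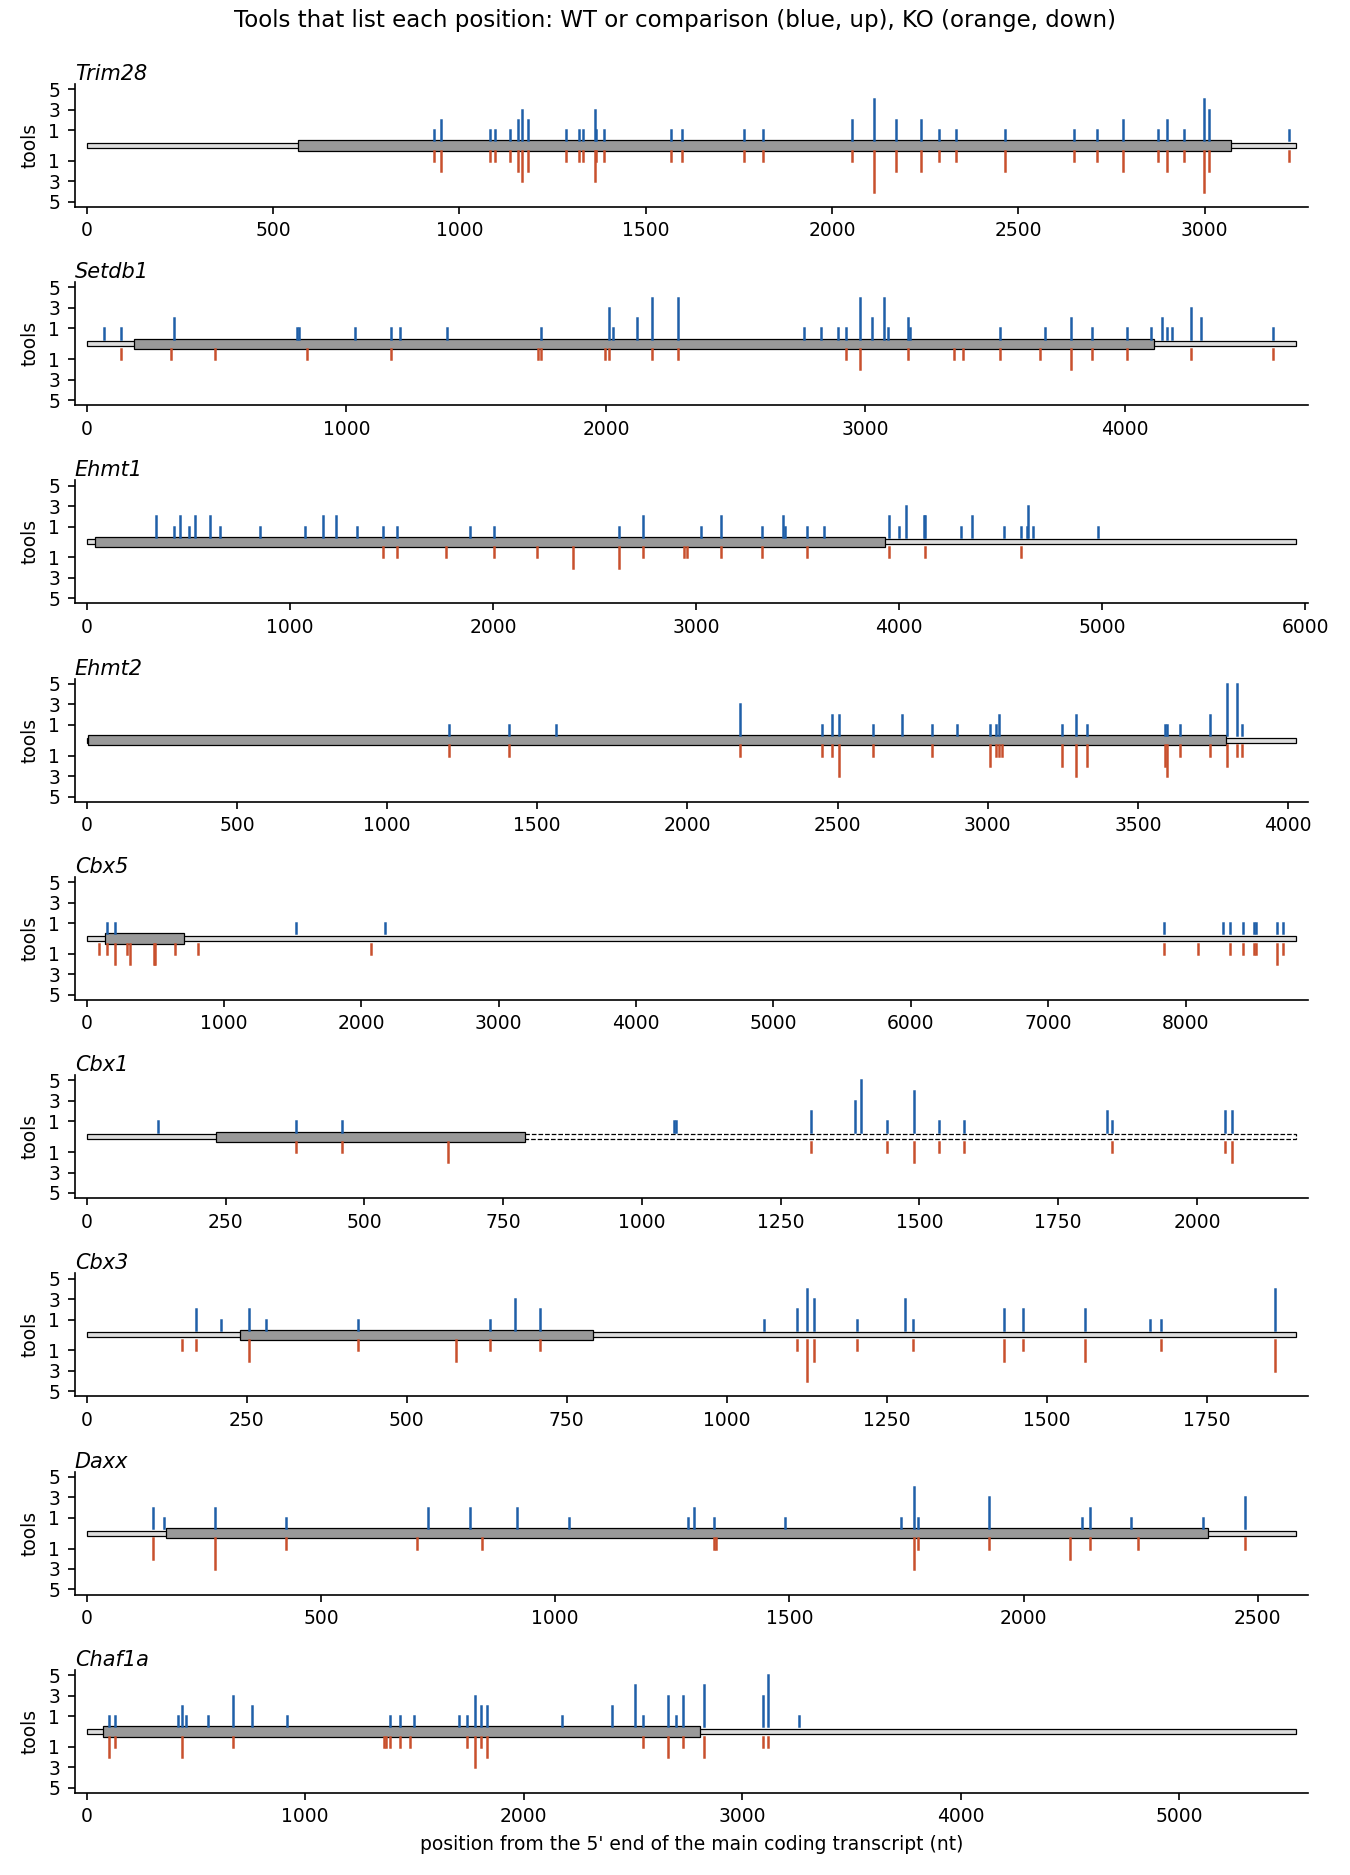
Listed positions on the main coding transcript of each of the 9 genes, in nt from the 5′ end, with the coding sequence as the thick grey bar; a blue line upward gives the number of tools in WT or the comparison, an orange line downward the number in KO, and the dashed bar of Cbx1 is the extended exon of another transcript, drawn on from the stop codon. Trim28 carries 34 positions in WT and the same 34 in KO, Ehmt1 has 38 in WT and 16 in KO, and Cbx5 has 12 in WT and 18 in KO.

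Trim28, the scaffold of the silencing complex, had the same 34 positions in WT and in KO. The gene (ENSMUSG00000005566) is on chromosome 7 of GRCm38 (plus strand, 12999114 to 13031035), and its transcript ENSMUST00000005705 has 17 exons and 3245 nt. It holds 35 RRACH positions, and the 34 listed ones include all 33 of the coding sequence and the single one of the 3′ UTR. Nanom6A listed all 34 in WT and all 34 in KO. The other tools listed fewer. Tombo had 9 in each condition, 8 of them shared, and m6Anet had the same 4 in each. ELIGOS listed 3 in WT and 2 in KO, Epinano the same 2 in both, and MINES and xPore a single position each, the same in both. Over all genes, the share of WT positions that the same tool listed again in KO was 65.4% for Nanom6A, 59.7% for Tombo, 40.2% for MINES, 34.4% for m6Anet, 11.5% for ELIGOS, 16.5% for Epinano and 24.9% for xPore. At its own cut-offs the study reports a lower share for Tombo and a much lower one for Nanom6A, so these values hold for the deposited lists only.

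Summed over the 6 single-mode tools, 51 of the 53 WT listings of Trim28 were repeated in KO by the same tool, which is 96.2% (87.2% to 99.0%), against 45.1% over all genes and 56.7% when the series shares of the tools are weighted by their listings of Trim28 in WT. The next highest share was 66.7% in Cbx5, from 12 listings. Among the 2437 genes with at least 5 Nanom6A positions in WT, a minimum chosen after the values were seen, 17.7% had all of them listed again, as Trim28 did, and the median was 66.7%. Since Nanom6A listed 34 of the 35 RRACH positions in each condition, its lists could hardly differ, and they make up 34 of the 53 WT listings. Without Nanom6A, a value added after seeing the data, 17 of 19 were repeated (89.5%, 68.6% to 97.1%), beside 40.9% over all genes. The lists of the other tools for Trim28 thus also differed little between WT and KO, on few listings, and the cause was not tested.

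The sites at which at least 3 of the same tools listed Trim28 in both conditions numbered 4. They lay at 13027628 in exon 4 (Tombo, Nanom6A and m6Anet), at 13027904 in exon 5 (Tombo, MINES and Nanom6A), at 13029480 in exon 12 (Tombo, Nanom6A, m6Anet and ELIGOS) and at 13030790 in exon 17 (Nanom6A, ELIGOS, Epinano and xPore). The last is 70 nt before the stop codon and is the only one of the 4 that xPore listed. Each sequence is shown because WT and KO cells gave it the same tools. It runs 5′ to 3′ on the transcript with 21 nt, and capitals mark the RRACH 5-mer centred on the listed A.
Trim28 13027628: acctgctaAGACTcgagatgg
Trim28 13027904: cgtcttggGGACAaacatgcc
Trim28 13029480: actactgaGGACTacaatctg
Trim28 13030790: tgctggtaGAACCaccaccat

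Setdb1, the histone methyltransferase that Trim28 recruits, had 37 positions in WT and 23 in KO, with 15 in both. The gene (ENSMUSG00000015697) is on chromosome 3 (minus strand, 95323525 to 95357202), and ENSMUST00000015841 has 22 exons and 4658 nt. Of its WT listings by single-mode tools, 16 of 59 were repeated in KO (27.1%, 17.4% to 39.6%). The series shares of the tools, weighted by its WT listings after seeing the data, gave 41.0%. The contrast was widest for m6Anet, which listed 18 positions in WT and 1 in KO, and not 1 of the 18 came back. This share of 0% has an upper limit of 17.6%, beside 34.4% of m6Anet positions over all genes. A share of 0 was also found in 12.2% of the 2175 genes with at least 5 m6Anet positions in WT, and in 7.68% of the 612 genes with at least 10.

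Tombo, Epinano and MINES were less one-sided on Setdb1. Tombo listed 24 positions in WT and 19 in KO, with 12 in both. Epinano had 11 and 4 with 3 in both, MINES had 4 and 1 with 1 in both, while ELIGOS had 2 and 0, xPore 1 and 0, and Nanom6A none in either condition. Some tool other than m6Anet listed 6 of the 18 m6Anet positions in KO. The KO lists thus held positions of Setdb1, mostly from Tombo, while m6Anet, which asks for more reads than the other tools, listed almost none there. Depth at these positions is not given and its part was not tested.

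The WT positions of Setdb1 clustered in 3 long exons. Exon 16, with 629 nt and 13 RRACH positions, had 10 in WT and 4 in KO, and m6Anet listed 8 there in WT and 0 in KO. Exon 13, with 687 nt, had 5 of its 6 RRACH positions listed in WT and 4 in KO, with 4 and 0 for m6Anet. The last exon, with 11 RRACH positions over 666 nt, had 8 in WT and 3 in KO, again with 4 and 0 for m6Anet. Most m6Anet positions of the gene thus stood in 3 exons. Of the positions with 4 tools in WT, the one nearest the stop codon was 95327500 in exon 16, listed by Tombo, m6Anet, Epinano and xPore in WT and by none in KO. Its sequence is shown as the site of Setdb1 with the widest contrast, with the 5-mer in capitals.
Setdb1 95327500: acttccaaGGACTcccgcccc

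Ehmt1, which encodes GLP, had the smallest share of WT listings repeated in KO of the 9 genes. The gene (ENSMUSG00000036893) is on chromosome 2 (minus strand, 24789928 to 24919614), and ENSMUST00000147147 has 27 exons and 5953 nt. It had 38 positions in WT, 16 in KO and 11 in both. By the same tool, 11 of 53 WT listings were repeated in KO (20.8%, 12% to 33.5%), beside 40.4% for the series weighted by its listings. Tombo repeated 34.6%, and 16.2% of the 6406 genes with at least 5 Tombo positions in WT were at or below that. Only 4 of the 7 tools with paired lists found positions here. Tombo listed 26 in WT and 14 in KO with 9 in both, Epinano 21 and 1 with 1 in both, MINES 6 and 3 with 1 in both, and xPore 2 and 0. Epinano thus repeated 4.76% (0.846% to 22.7%) of its WT positions, beside 16.5% over all genes.

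Along Ehmt1, the positions in WT only were mostly in the 5′ part and in the last exon. Exon 3, with 16 RRACH positions over 557 nt, had 7 positions in WT and 0 in KO, 6 of them by Tombo and 5 by Epinano. The last exon, with 2203 nt and 25 RRACH positions, had 13 in WT and 3 in KO, and Epinano listed 11 there in WT and 0 in KO. The 5 positions found in KO only lay in exons 11, 13, 15 and 20 in the middle of the transcript. The WT position nearest to the annotated 3′ end was 974 nt from it. The site named for Ehmt1, 24791848, lies 104 nt past the start of the stop codon and was listed by Tombo, MINES and Epinano in WT and by none in KO. It is shown as the best supported Ehmt1 site near the stop codon, with its 5-mer in capitals.
Ehmt1 24791848: ggaggtatGGACAcctctcag

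Ehmt2, which encodes G9a, the partner of GLP, differed from Ehmt1 in these lists. The gene (ENSMUSG00000013787) is on chromosome 17 (plus strand, 34898469 to 34914052), and ENSMUST00000013931 has 27 exons and 4026 nt. Of its 25 positions, 24 were in WT, 22 in KO and 21 in both. The same tool repeated 22 of 38 WT listings in KO (57.9%, 42.2% to 72.1%). This interval and that of Ehmt1 do not overlap, though positions in 1 transcript share their reads and the difference was not tested. m6Anet listed 7 positions in each condition with 5 shared, a share of 71.4% (35.9% to 91.8%), which 5.56% of the genes with at least 5 such positions reached or passed. Tombo listed 15 in WT and 14 in KO with 11 shared, Nanom6A 4 and 7 with 2 shared, and Epinano 8 and 3 with 2 shared.

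No position of Ehmt2 lay in the first 7 exons, and the 5 RRACH positions of the last exon were all listed in both conditions. In that exon stood the best supported site of the gene, 34913823, where the listed A is 5 nt past the start of the stop codon. In WT it was listed by Tombo, Nanom6A, m6Anet, Epinano and xPore, and in KO by Nanom6A and m6Anet. A neighbour at 34913857, picked out after its values were seen, had the same 5 tools in WT and Epinano alone in KO. The number of tools thus fell at both sites in KO without either site leaving the KO lists. The sequence around the first is shown because it sits directly after the stop codon, with its 5-mer in capitals.
Ehmt2 34913823: acacctgaGGACTcttaaaat

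**Figure D2:**
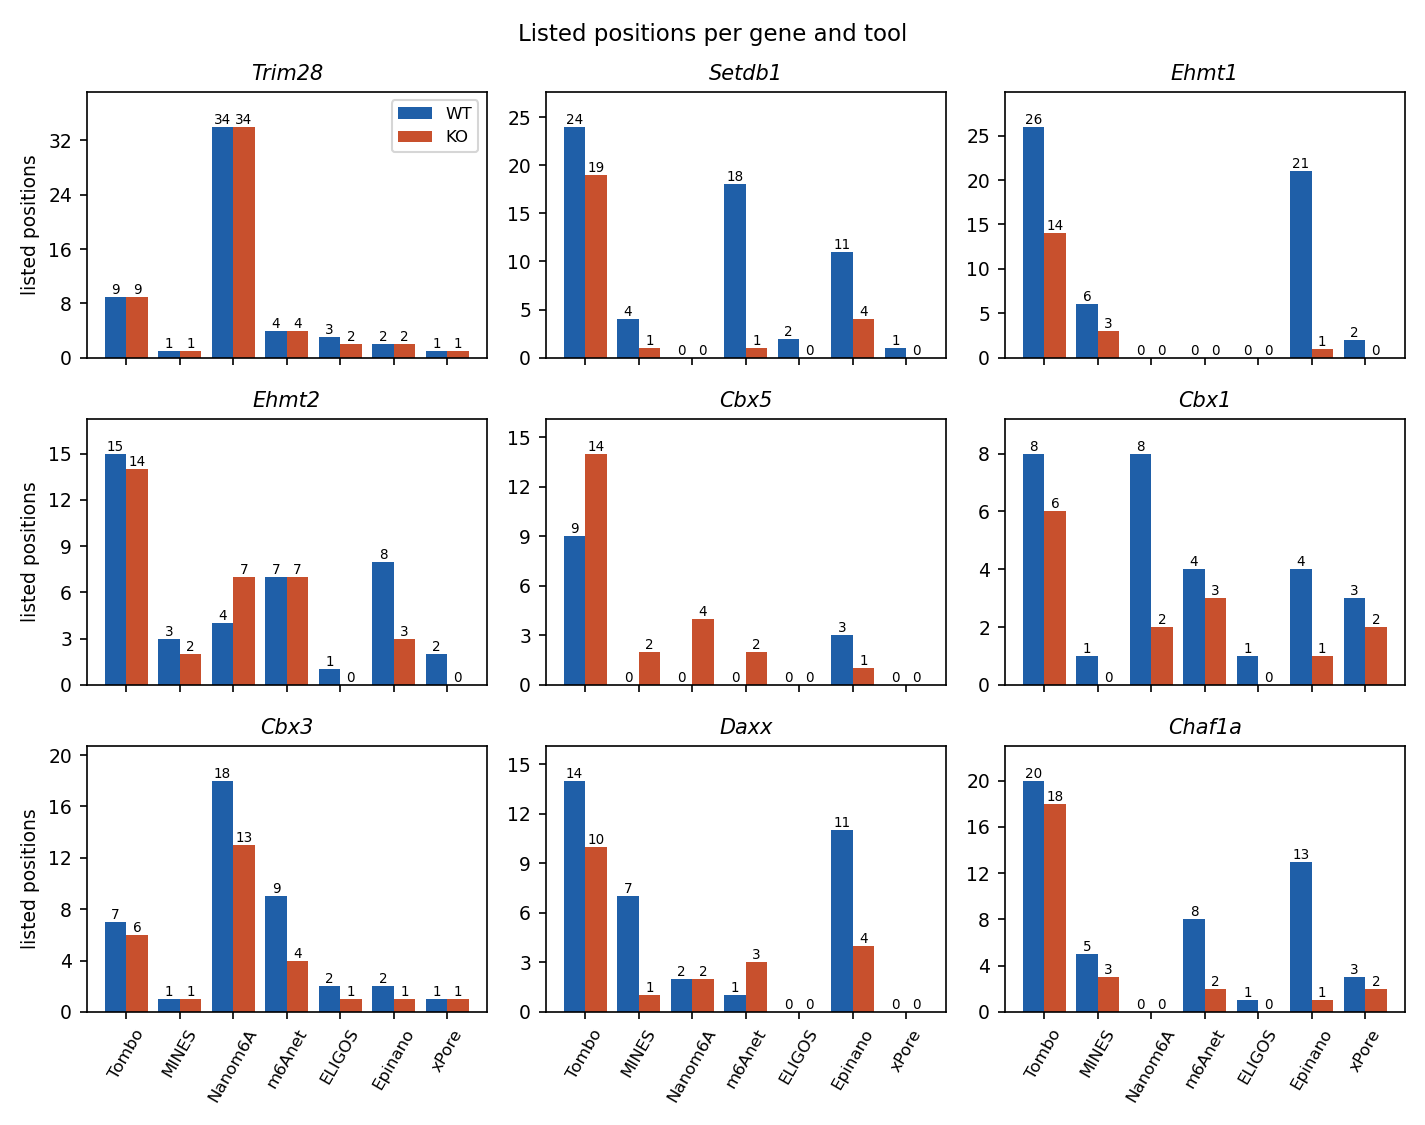
Number of positions that each of the 7 tools with paired lists gave for each gene, WT in blue and KO in orange, each panel with its own vertical axis from 0. Nanom6A listed 34 positions of Trim28 in both conditions and none of Setdb1, Ehmt1 or Chaf1a, m6Anet listed 18 positions of Setdb1 in WT and 1 in KO, and Epinano listed 21 positions of Ehmt1 in WT and 1 in KO.

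Cbx5, which encodes HP1 alpha, was the only member with more positions in KO than in WT. The gene (ENSMUSG00000009575) is on chromosome 15 (minus strand, 103191544 to 103239816), and ENSMUST00000118152 has 5 exons and 8803 nt, of which 8097 nt are 3′ UTR. It had 12 positions in WT, 18 in KO and 9 in both. Tombo listed 9 in WT and 14 in KO, Nanom6A 0 and 4, m6Anet 0 and 2, and MINES 0 and 2. Epinano went the other way, with 3 in WT and 1 in KO. No position of Cbx5 had more than 1 tool in WT or more than 2 in KO.

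The extra KO positions of Cbx5 lay mainly in its short coding sequence. Its 13 RRACH positions gave 2 listed ones in WT and 7 in KO. Exons 3 and 4 held 4 positions, all in KO only and 3 of them with more than 1 tool, at 103205633 (Nanom6A and m6Anet), 103200866 (Tombo and m6Anet) and 103200860 (Tombo and Nanom6A), named after their values were seen. The 3′ UTR had 10 of 88 RRACH positions listed in each condition, 7 of them the same. Most of these lay in the last part of the 3′ UTR, between 7138 and 8004 nt past the start of the stop codon, with a long stretch before them that held few. The site that the rule chose for Cbx5, with ties going to the one nearest the stop codon, was 103213129 in exon 2, listed by Tombo in WT and by Tombo and MINES in KO. It is shown as a coding site found in both conditions, with the 5-mer in capitals.
Cbx5 103213129: aaggtgttGGACAggcgcatg

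Cbx1, which encodes HP1 beta, had 16 positions in WT, 11 in KO and 10 in both. The gene (ENSMUSG00000018666) is on chromosome 11 (plus strand, 96789127 to 96808640), and its main coding transcript ENSMUST00000093943 has 6 exons and 1251 nt. Only 4 of the 17 positions lay on it. The other 13 were held by a single annotated transcript, ENSMUST00000134585, classed as a target of nonsense-mediated decay, in its last exon from 96806616 to 96808149. They stood 270 to 1276 nt past the start of the stop codon of the main transcript on the genome, and all 13 were in WT and 8 in KO. In the other 8 genes every listed position was on the main coding transcript. The tools of Cbx1 therefore reported mostly on an exon that reads on past the stop codon where the main transcript is spliced to its own last exon, in which none of the 6 RRACH positions was listed.

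The best supported site of Cbx1 lay in this extended exon, at 96807365. In WT it was listed by Tombo, Nanom6A, m6Anet, ELIGOS and xPore, and no KO list held it. It was the only position of the 9 genes with 5 tools in WT and none in KO, and its sequence is shown for that reason, with the 5-mer in capitals. Over the gene, the same tool repeated 9 of 26 WT listings in KO (34.6%, 19.4% to 53.8%), and Nanom6A went from 8 in WT to 2 in KO, both among the 8.
Cbx1 96807365: actatgagAGACTgttaaaaa

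Cbx3, which encodes HP1 gamma, had 21 positions in WT, 17 in KO and 15 in both. The gene (ENSMUSG00000029836) is on chromosome 6 (plus strand, 51470360 to 51483704), and ENSMUST00000031862 has 6 exons and 1889 nt. With 87.5 WT positions per 100 RRACH it was second to Trim28. All 15 RRACH positions of its last exon were listed in WT, and 11 were listed in KO. Nanom6A gave most of them: over the gene it listed 18 positions in WT and 13 in KO, with 12 shared. m6Anet listed 9 in WT and 4 in KO, all 4 among the 9, and Tombo 7 and 6 with 4 shared. The same tool repeated 21 of 39 WT listings in KO (53.8%, 38.6% to 68.4%).

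At 2 sites of the 3′ UTR of Cbx3, at least 3 of the same tools listed both conditions. The first, 51482942, was listed by Tombo, Nanom6A, m6Anet and ELIGOS in WT and by Tombo, MINES, Nanom6A and m6Anet in KO. The second, 51483672, lies 32 nt from the 3′ end, and Nanom6A, m6Anet and xPore listed it in both, with Tombo in WT in addition. Both are shown as sites with at least 3 of the same tools in KO as in WT, with the 5-mer in capitals. A further position, 51470739, named after its value was seen, was the only one of the 265 whose 5-mer on the genome was outside RRACH. It is the last base of exon 1, and its 5-mer reads GAAGT on the genome and GAACT on the spliced transcript, so all 265 lay in RRACH on spliced RNA.
Cbx3 51482942: tttaactgGGACAcagaagga
Cbx3 51483672: ataatggtGAACAgtggtcaa

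Cbx3 has 7 pseudogene copies that match its transcript over at least 200 nt at 95% identity or more, the longest over 552 nt at 99.8%, and none of these copies held a listed position. Setdb1 matches 1 other gene, not classed as a pseudogene, over 271 nt, and that gene had no listed position. The other 7 genes had none. Whether reads of a copy were placed on these genes was not tested.

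Daxx, the histone chaperone that works with Atrx, had 21 positions in WT, 14 in KO and 9 in both. The gene (ENSMUSG00000002307) is on chromosome 17 (plus strand, 33909414 to 33915590), and ENSMUST00000079421 has 8 exons and 2581 nt. The same tool repeated 12 of 35 WT listings in KO (34.3%, 20.8% to 50.8%). MINES listed 7 in WT and 1 in KO, its highest WT count in any member, and Epinano 11 and 4 with 2 shared. m6Anet went from 1 in WT to 3 in KO with none shared, and Tombo from 14 to 10 with 7 shared. The positions were spread over all 8 exons, with 7 of the 26 in exon 3, the longest of the coding exons, where 5 were in WT and 3 in KO. At 33913379 in exon 6, Tombo, MINES, Nanom6A and Epinano listed WT, and Tombo, Nanom6A and m6Anet listed KO. Its sequence is shown as the Daxx site with most tools, with the 5-mer in capitals.
Daxx 33913379: aaaagagaGGACTgacagaga

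Chaf1a, the CAF-1 subunit, was the only member with positions in a comparison list. The gene (ENSMUSG00000002835) is on chromosome 17 (plus strand, 56040439 to 56072289), and ENSMUST00000002914 has 14 exons and 5535 nt. It had 28 positions in WT, 19 in KO and 16 in both. Nanocompore listed 3, and DiffErr and DRUMMER listed none of any member. The 3 make up 1.30% (0.443% to 3.75%) of the 231 WT or comparison positions of the silencing genes, beside 2.45% over the series in at least 1 of the 3 lists, with 1.63% for Nanocompore, 1.36% for DiffErr and 0.982% for DRUMMER. The interval includes the series value, so a lower share in these genes was not detectable with 3 positions.

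The 3 Nanocompore sites of Chaf1a stand in the last exon within a stretch around the stop codon. At 56067471, 77 nt before the start of the stop codon, Tombo and m6Anet also listed WT and xPore listed KO. At 56067569, 21 nt past it, Tombo, m6Anet and Epinano listed WT, and Tombo and xPore listed KO. At 56067859, 311 nt past it, Tombo, m6Anet, Epinano and xPore listed WT, and Tombo alone listed KO. All 3 were thus in WT lists of at least 2 other tools, and all 3 were also in a KO list, though m6Anet listed none of them in KO. For 56067471 the only KO list was that of xPore, which models both libraries together. Another Chaf1a site, 56062715 in exon 9, had Tombo, MINES and m6Anet in both conditions. Its 21 nt span the junction with exon 10, so they run from 56062705 to 56062816 on the genome. The sequences are shown to set the sites of the comparison list beside the site with the same 3 tools in both, with the 5-mers in capitals.
Chaf1a 56067471: gatgacacAGACTgtatgatc
Chaf1a 56067569: aagttgaaAGACCtgggggaa
Chaf1a 56067859: aattgtaaAGACTctgggtcc
Chaf1a 56062715: tgggcccaGGACAaagacctt

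Elsewhere in Chaf1a, Epinano gave the widest contrast, with 13 positions in WT and 1 in KO. It repeated 7.69% (1.37% to 33.3%) of its WT positions, an interval that includes the 16.5% over all genes. Of its positions, 6 in WT and the 1 in KO lay in exon 3, where all tools together had 7 positions in WT and 2 in KO. Tombo listed 20 in WT and 18 in KO with 14 shared, m6Anet 8 and 2 with 2 shared, and Nanom6A none. The same tool repeated 20 of 47 WT listings in KO (42.6%, 29.5% to 56.7%). In the 3′ UTR, 34 RRACH positions gave 4 listed ones in WT and 3 in KO, and no WT position of any tool was closer than 2273 nt to the annotated 3′ end. The listed positions thus ended well before the annotated transcript did.

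By tool, most shares of WT positions listed again in KO were near those of the series. Tombo repeated 76 of 132 (57.6%, 49.0% to 65.7%), beside 59.7% over all genes. MINES repeated 9 of 28 (32.1%, 17.9% to 50.7%), beside 40.2%. Nanom6A repeated 52 of 66 (78.8%, 67.5% to 86.9%), beside 65.4%, and without Trim28 it repeated 18 of 32 (56.2%, 39.3% to 71.8%), so the higher share rests on that gene. For m6Anet the count was 17 of 51 (33.3%, 22.0% to 47.0%), beside 34.4%, and without Setdb1 it was 17 of 33 (51.5%, 35.2% to 67.5%). ELIGOS repeated 3 of 10 (30.0%, 10.8% to 60.3%), beside 11.5%, and without Trim28 1 of 7 (14.3%). The values without a gene were added after seeing the data. Epinano repeated 13 of 75 (17.3%, 10.4% to 27.4%), beside 16.5%. For xPore, which uses both libraries, it was 4 of 13 (30.8%, 12.7% to 57.6%), beside 24.9%. The series value lay within the interval of every tool but Nanom6A. That of m6Anet depended on Setdb1, since without this gene the series value was below the interval.

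**Figure D3:**
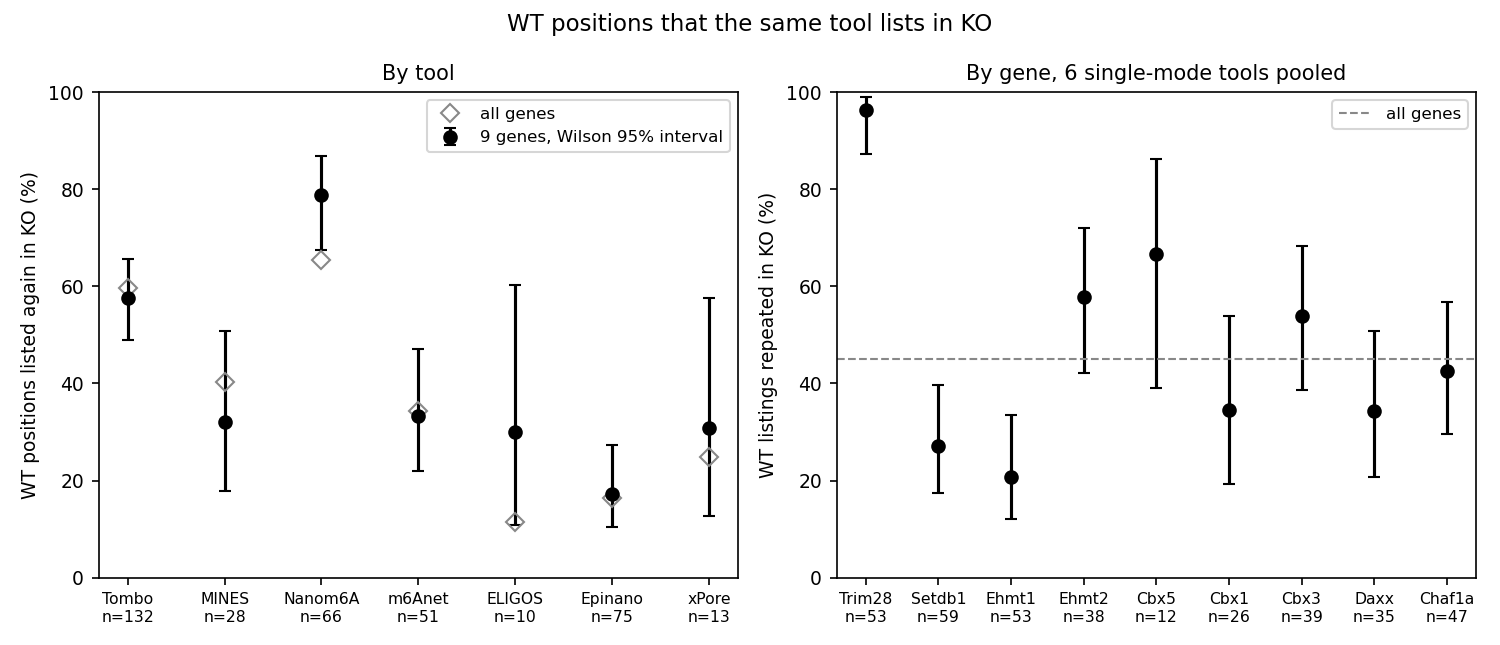
Share of WT positions that the same tool listed in KO, in percent, with Wilson 95% intervals; on the left by tool for the 9 genes (points) beside all genes (diamonds), on the right by gene over the 6 single-mode tools with the value of all genes as a dashed line, and n the number of WT positions or listings. By gene the share runs from 20.8% in Ehmt1 to 96.2% in Trim28, and the dashed line is at 45.1%.

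Pooled over the 6 single-mode tools, 170 of 362 WT listings of the silencing genes were repeated in KO (47.0%, 41.9% to 52.1%), and without Trim28 119 of 309 (38.5%, 33.3% to 44.0%). The series value of 45.1% has other proportions of tools. With the tools weighted as in the silencing genes, a value added after seeing the data, it was 45.4% for all 9 genes and 43.5% without Trim28, and each lies within its interval. Weighted gene by gene, it lay outside the interval of Trim28, Setdb1 and Ehmt1 and within that of every other gene. The pooled share of the group is thus set in part by the single gene whose WT and KO positions were the same. Outside the group Trim28 was not alone in this. H3f3a of the other pathway genes and the stem cell markers Pou5f1, Zfp42 and Dppa5a also had all positions (13, 25, 18 and 6) in both conditions.

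Most WT positions of the silencing genes rested on 1 tool. Of the 231, 139 were listed by 1 tool (60.2%, 53.7% to 66.3%), beside 65.3% over the series, and Tombo alone gave 58 of them, Nanom6A 31, Epinano 29 and m6Anet 14. At least 2 tools listed 92 (39.8%, 33.7% to 46.3%), beside 34.7%, and at least 3 listed 35 (15.2%, 11.1% to 20.3%), beside 12.6%. At least 4 tools listed 16 (6.93%, 4.31% to 11%), beside 5.50%, and at least 5 tools listed 4 (1.73%, 0.675% to 4.37%), beside 3.28%. These 4 were the Cbx1 site, the Ehmt2 site after the stop codon with its neighbour, and the Chaf1a site at 56067859. Of the 140 positions in both conditions, 7 had at least 3 of the same tools in both (5.0%, 2.44% to 9.96%), beside 3.38%, and they lay in Trim28, Cbx3 and Chaf1a. Among them, Trim28 13027904 and Chaf1a 56062715 reached 3 tools through MINES, which takes its input from Tombo. No position had at least 3 tools in KO and none in WT.

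Near the stop codon, the silencing genes had a smaller share of their positions than the series, a difference that was not tested. Of the 218 WT positions on a main coding transcript, 33 stood at most 200 nt from the start of the stop codon (15.1%, 11% to 20.5%), beside 22.8% over all genes. In KO it was 25 of 166 (15.1%, 10.4% to 21.3%), beside 21.3%, and among positions in WT and not in KO it was 12 of 86 (14%, 8.17% to 22.8%), beside 21.2%. The intervals for KO and for WT without KO reach the series values, while that for WT does not. Of the RRACH positions on the same 9 transcripts, 50 of 517 (9.67%) were in that window, a smaller share than that of the listed positions. The RRACH share of the window was not counted over all genes. In Trim28 and in Ehmt2, all 6 RRACH positions of the window were listed in both conditions. Setdb1 had 7 of 10 in WT and 2 in KO, and Ehmt1 had all 4 in WT and 1 in KO. Cbx5 had none of 4 in WT and 2 in KO.

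By region, the coding sequences had the most positions, 160 in WT and 128 in KO of 323 RRACH, which is 49.5 and 39.6 per 100. The 3′ UTRs had 51 and 33 of 180, or 28.3 and 18.3 per 100, and the 5′ UTRs 7 and 5 of 14. The long 3′ UTRs of Cbx5 and Chaf1a, with few listed positions, hold 88 and 34 of the 180. The pooled order thus did not hold gene by gene. In WT the 3′ UTR was denser than the coding sequence in Setdb1 (85.7 against 43.3 per 100), Cbx3, Ehmt1 (52.0 against 34.2) and Ehmt2. It was equal in Trim28 and less dense in Cbx1, Cbx5, Daxx and Chaf1a. For Cbx1 this leaves out its 13 positions off the main transcript, which lie past the stop codon on the genome. The pooled counts by region leave them out too. Regions were not counted over all genes. In Cbx3 the 3′ UTR was the densest region, with all 13 RRACH positions listed in WT and 10 in KO. In Setdb1 the 3′ UTR had 6 of 7 in WT and 2 in KO.

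Among the 12 RRACH 5-mers, GGACA was the most frequent in the silencing genes. It made up 37 of the 231 WT positions (16.0%) and 29 of the 174 KO positions (16.7%), beside 14.5% in WT and 15.2% in KO over all genes. Its share of the RRACH positions on the 9 transcripts was 10.1%. GGACT made up 27 WT positions (11.7%), beside 11.9% over all genes, and 17 KO positions (9.77%), beside 9.69%. Among the 91 positions in WT only, GGACT came first with 14 (15.4%), ahead of GGACA with 11 (12.1%). These counts are too small to rank firmly, and positions in WT only were not counted by 5-mer over all genes. The WT and KO shares of both 5-mers were near those of the series.

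Of 26 other genes of the same pathways, among them Suv39h1, Suv39h2, Atf7ip, Hira, Atrx and Chaf1b, all 26 had listed positions, 25 in WT and 25 in KO. These 26, like the 9 members, were chosen with earlier results of these data known. They held 610 positions, 474 in WT or a comparison list and 430 in KO. The same single-mode tool repeated 333 of their 712 WT listings in KO (46.8%, 43.1% to 50.4%), close to the 47.0% of the 9 members. A comparison list held 7 positions in 5 of these genes: 2 each in the histone chaperone gene Asf1a and in Trim24, a relative of Trim28, and 1 each in Atf7ip, the partner of Setdb1, in the HUSH subunit gene Mphosph8 and in H3f3a. Picked out after their values were seen, Resf1 had 0 positions in WT and 16 in KO, Zfp644 1 and 16, and Pphln1 6 and 0. For Resf1 and Pphln1, whether reads were missing in the other condition cannot be told apart from a lower signal.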

How the data were processed

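The authors sequenced poly(A) RNA of WT and Mettl3 KO cells, 1 library each, aligned reads to a GENCODE transcriptome of GRCm38 and deposited 17 lists of called positions converted to the genome. The unit of the deposited lists is other than a level: a position and strand, with no score, cut-off or depth in the files. Positions were placed in exons of the 9 genes on the same strand with GENCODE M21, a later release than the authors used. Of 597 lines with a transcript, 494 gave the listed base on M21, and the others, in Chaf1a and Daxx, were off on the transcript, so genome positions were used. The main transcript was the coding one with the best support level, then the principal one, then most listed positions. Copies were searched with BLAST 2.17.0. Shares have Wilson intervals, and no test was made. The denominator for sites with 3 of the same tools in both conditions was chosen after seeing the data. Members and lists were chosen with earlier results of these data known. Named were all members, Mettl3, other pathway genes with the 5 highest comparison counts, member sites in a comparison list, the site with most tools per gene, sites with at least 3 of the same tools in both conditions, and any with 3 in KO and none in WT. Alternatives changed gene assignment, counting unit, matching, window, transcript and lists counted. Counting was tested on simulated data. Python 3.11.15, scipy 1.17.1, pysam 0.24.0 and matplotlib 3.10.9 were used.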

Additional observations from a re-analysis of the deposited data

How the results depend on the processing

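Counting every line in place of unique positions gave 725 in place of 265. Counting a WT position as listed again when any tool listed it in KO gave 64.6% pooled, 65.9% for Tombo, 67.9% for MINES, 89.4% for Nanom6A, 62.7% for m6Anet, 80.0% for ELIGOS, 38.7% for Epinano and 61.5% for xPore. Dividing by the union of WT and KO gave 40.0% pooled and 45.8% for Tombo. Of the alternatives added after seeing the data, leaving out Trim28 gave 38.5% pooled and 56.2% for Nanom6A, leaving out Setdb1 gave 51.5% for m6Anet, and leaving out Nanom6A gave 39.9% pooled. Within 100 nt of the stop codon the share was 8.26% in WT and 7.83% in KO, and within 400 nt 24.8% and 27.7%. With the 6 single-mode tools only, 0 positions had at least 5 tools. With Nanocompore left out, 0 positions were in a comparison list, and 0 were in at least 2 of the 3 lists. The window, the denominator and the lists counted change these values by construction. Of 74 alternative values for the main counts and shares, the other 52 stayed within their interval or within 1.5 times the count. Of 101 for single genes and 5-mers, 18 did not, 16 of them higher, mostly from counting lines or any KO tool; the lower 2 were Cbx1 with 4 positions on its main transcript and Cbx5 with 29.6% of the union. Matching KO positions within 5 bp changed none of the shares. No paired analysis was possible because each condition had 1 library.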

Other observations

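In WT, 21 of the 28 MINES positions of the silencing genes (75.0%) were also Tombo positions, beside 85.5% over all genes. Of the 75 Epinano positions, 35 (46.7%) were also in Tombo and 16 (21.3%) in m6Anet, beside 41.3% and 13.8% over all genes. Of the 51 m6Anet positions, 16 (31.4%) were also in Nanom6A, beside 42.5%. Cdyl, a pathway gene named after its values were seen, had 7 positions in WT and 15 in KO.

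The lists give no reads per position, so an unlisted position cannot be separated from an uncovered one, and the densities per RRACH position were not adjusted for depth. With 1 library per condition, differences between WT and KO describe these libraries. Positions in 1 gene share reads, and the tools share the same reads, which the intervals, computed as if positions were independent, do not take into account. Several lists are not, by their sizes, the sets made at the cut-offs of the methods, and the shares listed again in KO can differ at other cut-offs. The annotation release differs from the one used for alignment, and extended exons such as that of Cbx1 depend on it.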
